A study of Homo sapiens with 15 samples.

Results

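The 10 genes described here belong to the cytosolic heat shock system and were followed across 3 human acute myeloid leukemia (AML) lines after knockdown of RNF5, a membrane-anchored ubiquitin ligase. They comprised the transcription factor HSF1, the HSP70 genes HSPA1A, HSPA1B and HSPA8, the co-chaperones DNAJB1, HSPH1 and BAG3, the HSP90 genes HSP90AA1 and HSP90AB1, and the small heat shock protein HSPB1. Members were taken by gene symbol, 1 row per gene ID, which gave 10 of the 57820 gene IDs in the files.

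MOLM-13, U937 and HL-60 are established AML lines of myeloid or monocytic character. Each was transduced with the empty vector pLKO as control or with shRNF5, a short hairpin construct against RNF5 in the same vector, and profiled by RNA sequencing. The libraries numbered 3 with pLKO and 2 with shRNF5 in MOLM-13, 2 and 2 in U937, and 3 and 3 in HL-60. The labels place the harvest 7 days after knockdown and the design text 5 days, and which RNF5 hairpin was sequenced was not given in the sources used here, so that an effect of the hairpin sequence and of RNF5 loss cannot be told apart.

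In unstressed cells HSF1 is held inactive by chaperones of the HSP70 and HSP90 families. When unfolded proteins occupy these chaperones, HSF1 forms trimers, binds heat shock elements (inverted repeats of the unit nGAAn) and raises transcription of chaperone genes. HSPA8 is the constitutive HSP70, HSPA1A and HSPA1B encode the stress-inducible HSP70, DNAJB1 is an HSP40 that delivers clients and stimulates ATP hydrolysis, HSPH1 (HSP110) and BAG3 exchange nucleotide on HSP70, and HSP90AA1 and HSP90AB1 encode the more inducible and the more constitutive cytosolic HSP90. Leukemia cells are known for high chaperone levels. Transcript levels do not report HSF1 activity directly, since HSF1 is regulated mainly at the protein level.

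Upstream sequences are shown for the 4 members that were called in a line and whose window held a match to a heat shock element, with every match in capitals. HSPH1 and BAG3, also called, had windows without a match. The search used the 8-base forms GAANNTTC and TTCNNGAA, each its own reverse complement and so covering both strands, in RefSeq GRCh38.p14 windows from 250 bases before to 50 bases after each transcript start. A window without a match says only that these letters were not in it. The stretches end at the base before the RefSeq start. DNAJB1 has 3 windows, and the one with the most matches is shown. Each full window of 300 bases was found once on its own chromosome in GRCh37, the build of the files. The stretches lie at chr11:122932845-122933094 on the minus strand for HSPA8, chr6:31783190-31783319 on the plus strand for HSPA1A, chr6:31795385-31795514 on the plus strand for HSPA1B and chr19:14629210-14629339 on the minus strand for DNAJB1. Those of HSPA8 and DNAJB1 lie inside the annotated gene spans, whose outermost transcripts begin further upstream.
HSPA8: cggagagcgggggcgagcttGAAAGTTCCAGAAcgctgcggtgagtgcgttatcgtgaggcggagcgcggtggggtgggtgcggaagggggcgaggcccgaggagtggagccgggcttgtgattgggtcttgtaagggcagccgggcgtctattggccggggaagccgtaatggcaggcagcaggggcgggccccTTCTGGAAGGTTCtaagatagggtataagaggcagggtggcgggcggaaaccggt
HSPA1A: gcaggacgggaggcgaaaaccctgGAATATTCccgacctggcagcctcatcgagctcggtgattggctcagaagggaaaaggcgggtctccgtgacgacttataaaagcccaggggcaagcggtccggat
HSPA1B: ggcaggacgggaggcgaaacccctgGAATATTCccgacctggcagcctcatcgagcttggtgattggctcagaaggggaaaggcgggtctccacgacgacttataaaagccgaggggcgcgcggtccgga
DNAJB1: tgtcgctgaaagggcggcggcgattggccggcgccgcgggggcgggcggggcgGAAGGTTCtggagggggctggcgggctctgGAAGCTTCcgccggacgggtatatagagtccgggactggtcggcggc
The HSPA8 stretch held 2 places where both forms overlap, giving 3 units in a row, beginning 230 and 55 bases before the start. HSPA1A and HSPA1B held 1 match each, 106 and 105 bases before the start, and the DNAJB1 stretch held 2 separate matches. The stretches of HSPA1A and HSPA1B were 92.4% identical over their alignment, with 8 mismatches and 2 gaps. Of the 9 members with a window, 7 held at least 1 match of 2 units and 3 (HSPA8, HSP90AA1 and HSP90AB1) held one of 3 units, while BAG3 and HSPH1 held none. Among all 27305 genes with a window, 16.18% held a match of 2 units and 0.61% one of 3 units.

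Values were normalized read counts, which the authors scaled within each line, so that levels in different lines are set side by side only as a description. The normalized counts of a library summed to 24846125 to 25835131 in MOLM-13 and to 15988450 to 17490271 in U937 and HL-60, a ratio of 1.54 between the means. Where the order of lines depends on this, levels are also given scaled to a library sum of 1000000 (sum-scaled levels). Changes were tested within each line by limma on log2(value + 1), and a gene was called at a Benjamini-Hochberg adjusted p, over all genes tested, below 0.1 with an absolute log2 fold change above 0.4. The labels do not say whether replicates were separate transductions, so the p-values measure the spread between these libraries, which may be technical.

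RNF5 itself, checked first, had counts of 1223, 1017 and 1020 with pLKO and 76 and 81 with shRNF5 in MOLM-13. In U937 it had 648 and 843 against 46 and 74, and in HL-60 506, 689 and 545 against 37, 133 and 43. The constructs did not overlap in any line, and limma gave log2 fold changes of -3.77, -3.64 and -3.25 with adjusted p of 0.000336, 0.00287 and 0.00125. Depth, estimated from the spacing of low values, ran from 9700000 to 63800000 counted reads, the highest in an shRNF5 library of MOLM-13. All 7 myeloid markers were above 0 in each line, although ANPEP stood at only 2 to 53 in MOLM-13 and MPO at 32 to 96 in U937, and the T cell, erythroid and epithelial markers were at 0 throughout. In U937, 1 of 2 fibroblast markers was above 0 (COL1A1, with COL1A2 at 0), at 234 and 39 with pLKO and 15 and 29 with shRNF5. The B cell marker CD79A stood at 13 and 83 with pLKO and 24 and 32 with shRNF5 in U937 and at 22 to 44 in HL-60, and MS4A1 was at 0. The part of these markers in the results was not tested.

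Heat shock genes were called in 2 of the 3 lines. In U937, HSPA8, HSPH1 and HSPA1B rose with shRNF5, by 2.01, 1.15 and 1.09 on the log2 scale. In HL-60, HSPA1A, BAG3, HSPA1B and DNAJB1 rose, by 2.83, 0.86, 0.80 and 0.42. In MOLM-13 no member was called. No member was called lower in any line, and HSPA1B alone of the 10 was called in 2 lines, where 1.72% of the 11518 genes tested in both U937 and HL-60 were called in the same direction in both. In bulk RNA, a change within each cell and a change in the share of cells that express a gene cannot be told apart.

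These counts were read against the whole transcriptome. In U937, 3 of 10 members were called, all higher, where 15.7% of 13165 genes were called, 6.92% higher and 8.74% lower. In HL-60, 4 of 10 were called, all higher, against 25.9% of 12570 genes, 13.6% higher and 12.3% lower. In MOLM-13, limma called 0 of 9 tested members against 2.04% of 13026 genes, 1.03% higher and 1.01% lower, and 0 members had an unadjusted p below 0.05. The median log2 fold change of the members was 0.73 in U937, 0.33 in HL-60 and 0.00 in MOLM-13, beside medians over all genes of 0.00, 0.00 and 0.01. With 10 genes, these counts are a description of the members and no test of the list.

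**Figure D1:**
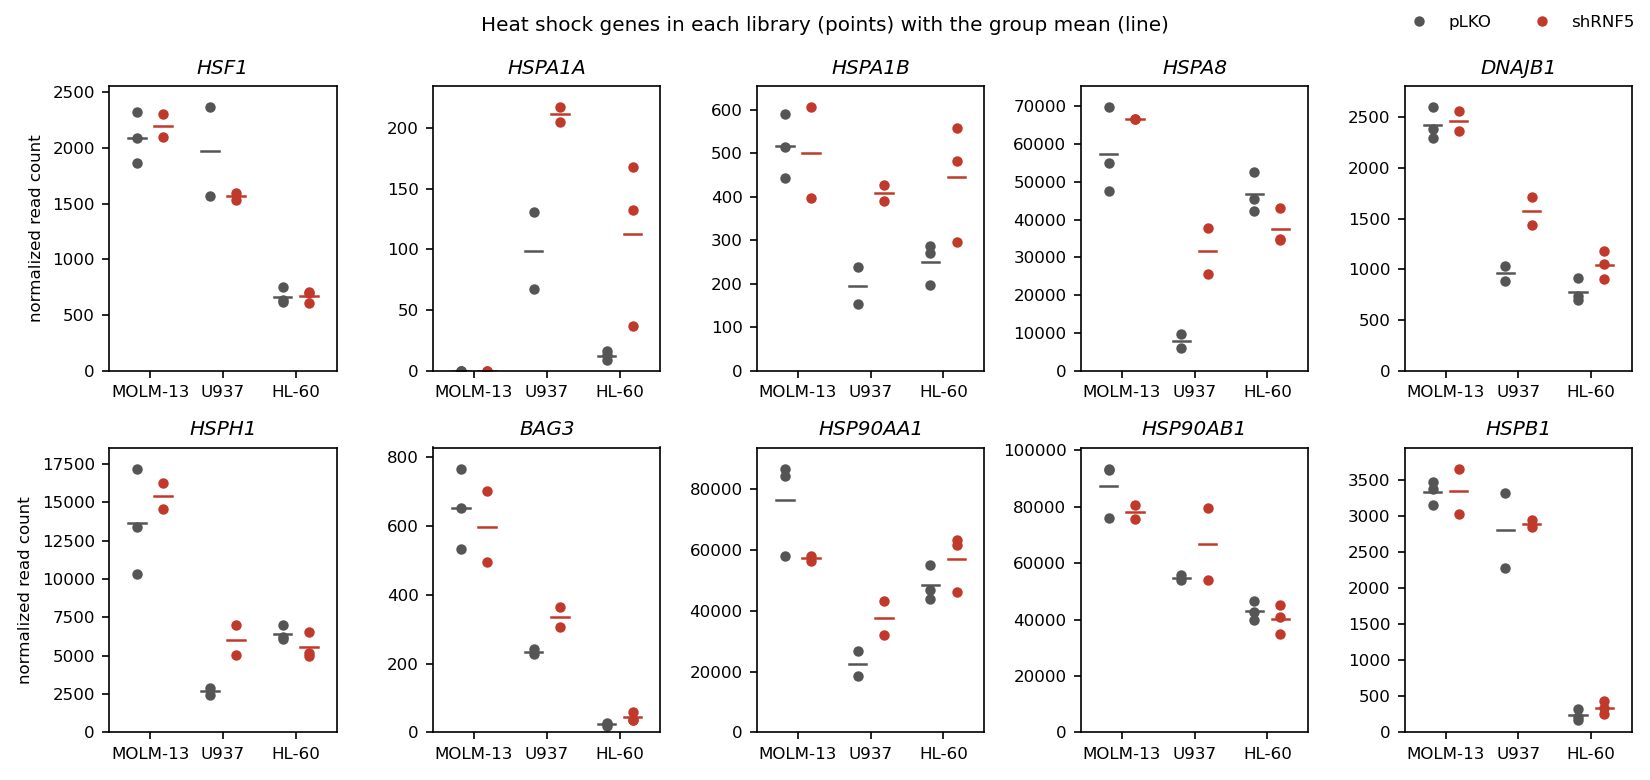
Normalized read counts (vertical axes, from 0, scaled within each line) of the 10 heat shock genes in each of the 15 libraries, as points with the group mean as a line, for pLKO (grey) and shRNF5 (red). HSPA8, HSPH1, DNAJB1 and HSP90AA1 separated the constructs upwards in U937 alone. HSPA1A, HSPA1B and BAG3 did so in U937 and HL-60, and HSPA1A was listed at 0 in MOLM-13.

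HSF1, the master regulator of the response, was not called in any line. In MOLM-13 its counts were 2318, 1863 and 2085 with pLKO and 2096 and 2301 with shRNF5. In U937 they were 2364 and 1569 against 1595 and 1531, and in HL-60 633, 749 and 617 against 695, 610 and 709. The constructs overlapped in every line. By limma, its log2 fold changes came to 0.08 for MOLM-13 (SE 0.15, adjusted p = 0.821), -0.30 for U937 (SE 0.27, adjusted p = 0.489) and 0.01 for HL-60 (SE 0.14, adjusted p = 0.956). Among pLKO libraries, HL-60 had the lowest counts, 666.3 ± 72.0 (SD, n = 3), below every library of MOLM-13 and U937. The controls of those 2 lines overlapped in counts but not in sum-scaled levels, at 72.1 to 90.8 in MOLM-13 and 98.0 to 143 in U937.

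HSPA8, which folds nascent proteins and drives clathrin uncoating, gave the largest change of any member in U937. Its counts there were 6091 and 9797 with pLKO and 37758 and 25535 with shRNF5, every shRNF5 library being above both controls. The mean was 3.98-fold higher, and the log2 fold change was 2.01 (SE 0.32, adjusted p = 0.0159, limma). In MOLM-13 the counts were 47642, 69746 and 54934 against 66518 and 66542, and in HL-60 45496, 52692 and 42299 against 34956, 42972 and 34557. In both of these lines the constructs overlapped, with log2 fold changes of 0.23 (SE 0.18, adjusted p = 0.544) and -0.32 (SE 0.16, adjusted p = 0.187) by limma. The U937 controls were the low point of the series, at 7944 ± 2621 (SD, n = 2) where the MOLM-13 and HL-60 controls averaged 57441 and 46829 and overlapped. In sum-scaled levels, the U937 shRNF5 libraries, at 2160 and 1580, lay below every HL-60 control (2600 to 3210), while the higher of them lay within the MOLM-13 controls (1870 to 2700).

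HSPH1, the HSP110 exchange factor that also serves as a disaggregase partner of HSP70, ranked the libraries of MOLM-13 and of U937 in the same order as HSPA8 did. In U937 it had 2465 and 2921 with pLKO and 7019 and 5074 with shRNF5, a log2 fold change of 1.15 (SE 0.26, adjusted p = 0.0321, limma). In HL-60 it had 6195, 7018 and 6097 against 5168, 6549 and 4965, a value of -0.22 (SE 0.14, adjusted p = 0.282, limma), and in MOLM-13 10361, 17205 and 13408 against 14540 and 16263, a value of 0.20 (adjusted p = 0.654). After each line was centred on its own mean, HSPA8 and HSPH1 had a Pearson correlation of 0.961 over the 15 libraries, the highest of the member pairs, and of 0.958, 0.993 and 0.957 within the 5, 4 and 6 libraries of MOLM-13, U937 and HL-60. These points share libraries and their depth, and centring on the line leaves the shift between constructs in them. The gene spans are chr11:122928197-122933938 (minus strand) for HSPA8 and chr13:31709110-31736525 (minus strand) for HSPH1 in GRCh37. Of the 75-base stretches of HSPA8 transcripts, 10.8% also occurred in another gene and 11.4% of its exonic bases overlapped an antisense gene, whose reads cannot be told apart unless the counting used strand, while HSPH1 had 0.0% shared stretches.

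Of the stress-inducible pair, HSPA1B rose in U937 and HL-60 and HSPA1A in HL-60. HSPA1A counts in HL-60 rose from 9, 13 and 16 with pLKO to 168, 132 and 37 with shRNF5, all 3 shRNF5 libraries being above the controls and replicate 3 nearest to them. The mean rose 8.84-fold, with a log2 fold change of 2.83 (SE 0.50, adjusted p = 0.00526, limma). In U937 HSPA1A had 67 and 131 against 205 and 217, a log2 fold change of 1.16 (SE 0.42) that missed the threshold (adjusted p = 0.108, limma). HSPA1A was listed at 0 in all 5 MOLM-13 libraries, as genes removed by a filter on low counts were, and no fold is given there.

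HSPA1B had 197, 287 and 270 with pLKO and 559, 483 and 297 with shRNF5 in HL-60, where the lowest knockdown library lay just above the highest control. The log2 fold change was 0.80 (SE 0.24, adjusted p = 0.0394, limma). In U937 it had 153 and 238 against 427 and 391, a log2 fold change of 1.09 (SE 0.34, adjusted p = 0.0743, limma). In MOLM-13 it had 591, 514 and 443 against 397 and 606, which overlapped, with a log2 fold change of -0.06 (adjusted p = 0.906, limma).

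HSPA1A (chr6:31783320-31785723) and HSPA1B (chr6:31795515-31798031), neighbours on the plus strand, encode nearly the same protein, and 71.6% of the 75-base stretches of HSPA1A and 73.3% of those of HSPA1B occur in another gene, mostly in the partner of the pair. How their counts divide is therefore uncertain, and the 0 of HSPA1A in MOLM-13 is subject to this. Summed over both genes, the counts were 206, 300 and 286 with pLKO and 727, 615 and 334 with shRNF5 in HL-60. The sums were 220 and 369 against 632 and 608 in U937. The constructs stayed apart in both lines, which follows from each gene being apart there and does not settle how the counts divide. In MOLM-13 the sums equalled the HSPA1B counts. The ratio of HSPA1A to HSPA1B was 0.045 to 0.059 in the HL-60 controls and 0.125 to 0.301 with shRNF5, and 0.438 to 0.555 across all 4 U937 libraries. HSPA1B also shares 36.6% of its exonic bases with an overlapping gene on the same strand.

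DNAJB1, a heat-inducible HSP40, rose in HL-60, from 734, 913 and 697 with pLKO to 1051, 1181 and 909 with shRNF5. 1 knockdown library lay below the highest control, so the groups overlapped, and the log2 fold change was 0.42 (SE 0.15, adjusted p = 0.0688, limma), close to the fold threshold. In U937 the counts were 1033 and 887 against 1715 and 1436, a log2 fold change of 0.71 (SE 0.25) that missed the threshold narrowly (adjusted p = 0.101, limma). In MOLM-13 they were 2291, 2599 and 2382 against 2366 and 2563, a value of 0.02.

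BAG3, which links HSP70 clients to autophagy and restrains apoptosis, rose in HL-60 from a low level of 19, 26 and 25 to 60, 36 and 36, without overlap. Its log2 fold change was 0.86 (SE 0.31, adjusted p = 0.0757, limma). In U937 it had 242 and 227 against 363 and 307 (log2 fold change 0.51, SE 0.31, adjusted p = 0.316, limma), and in MOLM-13 766, 533 and 653 against 494 and 701 (-0.13, adjusted p = 0.799). BAG3 control levels fell in the order MOLM-13, U937, HL-60, with no overlap between neighbours (means of 650.7, 234.5 and 23.3). The gene lies at chr10:121410892-121437331 (plus strand) and had 0.0% shared stretches.

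In line-centred values, HSPA1B correlated with BAG3 at 0.827, with HSPA1A at 0.844 and with DNAJB1 at 0.798 over 15 libraries, and with HSPA8 at 0.524. Within HL-60 the value for HSPA1B and HSPA8 was -0.453 (6 libraries) and within U937 0.982 (4 libraries). Centring on the line leaves the shift between constructs in these values, so they partly restate the changes above. The correlations are descriptions over few libraries.

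**Figure D2:**
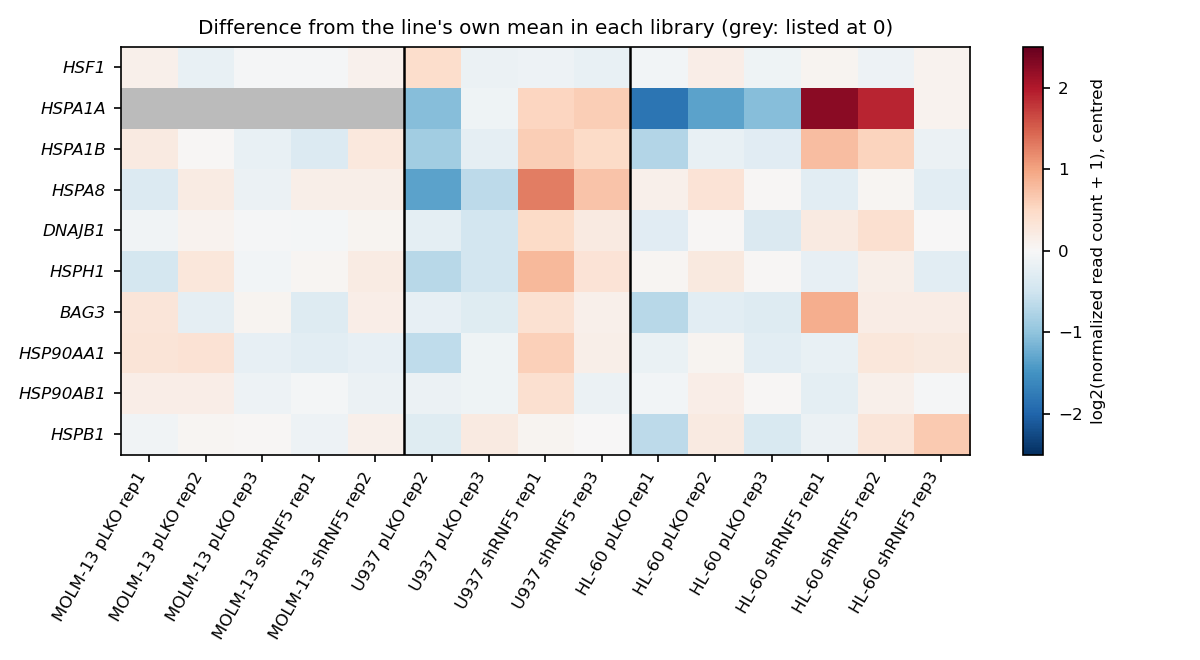
Line-centred log2(normalized read count + 1) of each heat shock gene (rows) in each library (columns), with black lines between the cell lines, red above and blue below the line's own mean, and grey where HSPA1A was listed at 0. The U937 knockdown libraries are red for HSPA8, HSPH1, HSPA1A, HSPA1B, DNAJB1, BAG3 and HSP90AA1, and in HL-60 the strongest colours belong to HSPA1A.

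The HSP90 genes were not called in any line. HSP90AA1 had 18455 and 26679 with pLKO and 43140 and 31945 with shRNF5 in U937, apart but with an adjusted p of 0.154 (limma, log2 fold change 0.74, SE 0.31). In MOLM-13 it had 84418, 86766 and 58151 against 56466 and 58185, a value of -0.39 (SE 0.20, adjusted p = 0.35, limma) with overlapping groups. In HL-60 it had 46879, 54943 and 43737 against 46151, 63403 and 61777, a value of 0.23 (SE 0.18, adjusted p = 0.401, limma).

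HSP90AB1 varied less, with log2 fold changes of -0.16, 0.26 and -0.10 in MOLM-13, U937 and HL-60. Its counts were 93537, 92924 and 75883 against 80693 and 75642 in MOLM-13. In U937 they were 53969 and 55819 against 79727 and 53954, and in HL-60 39804, 46591 and 42584 against 35068, 45060 and 40906. The ratio of HSP90AA1 to HSP90AB1 counts was 0.342 and 0.478 with pLKO and 0.541 and 0.592 with shRNF5 in U937. In HL-60 it was 1.178, 1.179 and 1.027 against 1.316, 1.407 and 1.510, and in MOLM-13 0.903, 0.934 and 0.766 against 0.7 and 0.769. Thus the ratio was higher in every knockdown library than in every control of U937 and HL-60, and overlapped in MOLM-13; no test was run on it.

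HSPB1 (HSP27), an ATP-independent holdase, was not called in any line. It had 176, 326 and 213 with pLKO and 250, 340 and 435 with shRNF5 in HL-60 (log2 fold change 0.53, SE 0.25, adjusted p = 0.164, limma), with overlap. In U937 it had 2291 and 3322 against 2951 and 2852, and in MOLM-13 3159, 3474 and 3387 against 3039 and 3665, for values of 0.07 and 0.00. The HL-60 controls, at 238.3 ± 78.1 (SD, n = 3), lay below all controls of MOLM-13 and U937. In sum-scaled levels, the U937 controls, at 139 and 207, lay above those of MOLM-13, at 124 to 136.

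In counts, MOLM-13 had the highest control mean for 9 of the 10 members, HSPA1A being the exception, but in sum-scaled levels for 6. On that scale U937 was highest for HSF1, HSPB1 and HSPA1A and HL-60 for HSPA8, and the MOLM-13 controls overlapped those of the line nearest in level for HSPA8, HSPH1, HSP90AA1 and HSP90AB1. In sum-scaled levels, only HSPA1B, DNAJB1 and BAG3 were higher in every MOLM-13 control than in every control of the other lines. The 10 members together made up 0.529% and 0.634% of the normalized counts in the U937 controls and 1.000% and 0.762% with shRNF5. The share was 0.840% to 0.998% in the HL-60 controls and 0.761% to 0.998% with shRNF5, and 0.849% to 1.067% against 0.893% and 0.911% in MOLM-13. The U937 controls therefore had the lowest share of any libraries.

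**Figure D3:**
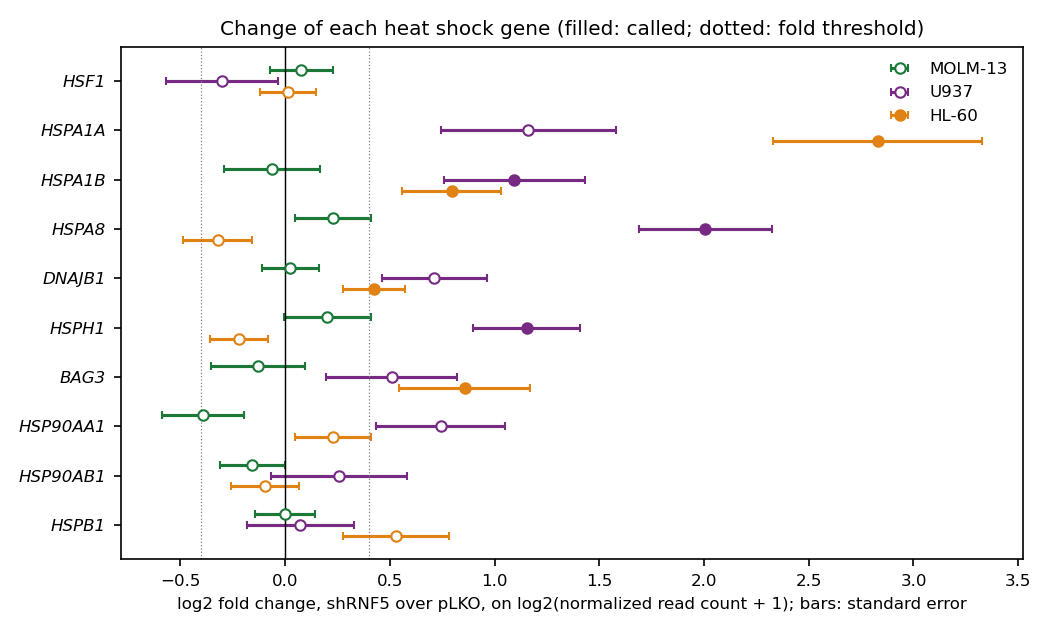
Log2 fold change of each heat shock gene, shRNF5 over pLKO, on the log2(normalized read count + 1) scale (horizontal axis), with the standard error as bars, for MOLM-13 (green), U937 (purple) and HL-60 (orange). Filled points were called, dotted lines mark the fold threshold of 0.4, and HSPA8 is the gene on which U937 and HL-60 lie furthest apart, at 2.01 and -0.32.

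Whether the response differed between lines was tested directly in 1 fit over all 15 libraries and 11072 genes above 0 in every line. Between MOLM-13 and U937, 5 of 9 members differed, where 15.4% of genes did. The differences, MOLM-13 minus U937, were -1.78 for HSPA8 (SE 0.34, adjusted p = 0.0111), -1.16 for HSPA1B (SE 0.42, adjusted p = 0.0958), -1.13 for HSP90AA1 (SE 0.34, adjusted p = 0.054), -0.95 for HSPH1 (SE 0.30, adjusted p = 0.065) and -0.69 for DNAJB1 (SE 0.24, adjusted p = 0.0882), by limma. Each was more positive in U937. Between U937 and HL-60, 2 of 9 members differed, no more than the 37.2% of all genes that did. With 9 members this count is a description and no test. The members that differed were HSPA8, by 2.33 (SE 0.33, adjusted p = 0.0005, limma), and HSPH1, by 1.37 (SE 0.29, adjusted p = 0.00376, limma), both more positive in U937. Between MOLM-13 and HL-60, limma called 0 of 9, against 8.82% of genes, with 2 at an unadjusted p below 0.05 (HSPA1B, -0.86, adjusted p = 0.195, and BAG3, -0.99, adjusted p = 0.132). HSPA1A, at 0 in MOLM-13, was compared between U937 and HL-60 in a fit over these lines, chosen after seeing the data, in which 34.4% of 11518 genes differed. Its difference was -1.67 (SE 0.76, adjusted p = 0.125, limma), so that the larger rise in HL-60 was not shown to differ from that in U937.

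Single libraries carried several of these calls. In U937, leaving out pLKO replicate 2, shRNF5 replicate 1 or shRNF5 replicate 3 ended all 3 calls, with 0, 0 and 6 of the 13165 genes called, while HSPA8 had log2 fold changes of 1.66, 1.73 and 2.29. Leaving out U937 pLKO replicate 3 instead brought in HSPA1A (1.64, adjusted p = 0.0695, limma). The lone library left in such a group is assumed to vary like the others. In HL-60, HSPA1A was called without any 1 library (2.41 to 3.49), while HSPA1B lost its call without pLKO replicate 1 (0.63), shRNF5 replicate 1 (0.61) or shRNF5 replicate 2 (0.71). DNAJB1 lost its call without pLKO replicate 1, pLKO replicate 3, shRNF5 replicate 1 or shRNF5 replicate 2 (0.33 to 0.42), and BAG3 without pLKO replicate 1, pLKO replicate 3, shRNF5 replicate 1 or shRNF5 replicate 3 (0.62 to 0.98). HSPB1 became called in HL-60 without pLKO replicate 2 (0.78) or shRNF5 replicate 1 (0.74). The difference in HSPA8 between U937 and either other line was called without any 1 library, and so was that in HSPH1 between U937 and HL-60. For MOLM-13 minus U937, HSPH1 (-1.03 to -0.72) and HSP90AA1 (-1.16 to -0.87) lost the call without MOLM-13 pLKO replicate 2, MOLM-13 shRNF5 replicate 1 or 2, U937 pLKO replicate 2 or U937 shRNF5 replicate 1. With each of the 15 libraries dropped in turn, HSPA1B and DNAJB1 each stayed called 5 times, at -1.47 to -0.84 and -0.82 to -0.56 over all 15.

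The wider chaperone network was described by 10 lists holding 90 genes. In U937, 7 of 79 tested list genes were called higher and 3 lower (8.86% and 3.80%, beside 6.92% and 8.74% of all genes), and in HL-60 17 of 75 were higher and 10 lower (22.7% and 13.3%, beside 13.6% and 12.3%). The 12 ER chaperones, a list taken for comparison, held 7 of the 17 higher calls in HL-60 and 0 of the 10 lower ones. In MOLM-13, limma called 0 of 77, with 11 at an unadjusted p below 0.05. Of the 75 list genes tested in both U937 and HL-60, 0 were called in the same direction in both by limma and 3 in opposite directions, beside 1.72% and 2.99% of all genes.

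Among other HSP70 and HSP110 genes, 1 of 5 tested was called in HL-60 and 0 of 6 in U937 by limma (1 at an unadjusted p below 0.05), with medians of -0.03 and 0.52. Over all genes, 25.9% were called in HL-60 and 15.7% in U937. The gene called was HSPA6, a strictly inducible HSP70, which rose from 7, 4 and 8 to 64, 53 and 18 in HL-60 (log2 fold change 2.51, SE 0.49, adjusted p = 0.00764, limma). As for HSPA1A, replicate 3 of the HL-60 knockdown was nearest to the controls. In U937 HSPA6 had 11 and 16 against 22 and 32 (0.95, adjusted p = 0.384), and in MOLM-13 30, 36 and 26 against 10 and 28 (-0.81, adjusted p = 0.448). The MOLM-13 response differed from that of HL-60 (-3.33, SE 0.74, adjusted p = 0.0277, limma), while that between U937 and HL-60 was -1.56 (adjusted p = 0.146). These counts are low, and HSPA6 has a near-identical pseudogene.

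Of the HSP40 list, 1 of 9 rose and 1 fell in U937, and 1 of 7 rose in HL-60. Over all genes, 6.92% were called higher and 8.74% lower in U937, and 13.6% and 12.3% in HL-60. DNAJA1, the main class A HSP40, had 1494 and 2077 with pLKO and 4560 and 3445 with shRNF5 in U937, a log2 fold change of 1.17 (SE 0.27, adjusted p = 0.0339, limma). Its values in HL-60 and MOLM-13 were -0.10 and -0.27, and the response in U937 differed from both (1.27 over HL-60, adjusted p = 0.00361, and -1.44 for MOLM-13 minus U937, adjusted p = 0.0111, limma). In HL-60 the gene called was DNAJB2, a neuronally enriched HSP40, from 69, 59 and 65 to 123, 134 and 288 (1.38, SE 0.30, adjusted p = 0.0118, limma). The BAG list had 0 of 5 called in every line by limma. An unadjusted p below 0.05 was seen for 1 of them in U937, 1 in MOLM-13 and 0 in HL-60, with medians of 0.38, -0.21 and -0.12.

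HSP90 co-chaperones split in direction, with 2 of 14 called higher and 1 lower in U937, beside 6.92% and 8.74% of all genes. In HL-60, 4 of 13 were called higher and 4 lower, beside 13.6% and 12.3%. The list medians were 0.09 in U937 and -0.25 in HL-60. STIP1 (HOP), the adaptor that passes clients from HSP70 to HSP90 and which was chosen here after its values were seen, rose in U937 from 1449 and 2113 to 3952 and 3787 (log2 fold change 1.14, SE 0.26, adjusted p = 0.0333, limma). In HL-60 it fell from 4325, 5506 and 3704 to 2736, 3721 and 2775 (-0.55, SE 0.17, adjusted p = 0.0457, limma), 1 knockdown library lying just above the lowest control, and the responses differed by 1.69 (SE 0.28, adjusted p = 0.00123, limma). AHSA2, related to the HSP90 ATPase activator AHSA1, moved the other way. It fell from 4605 and 3306 to 903 and 1767 in U937 (-1.63, adjusted p = 0.0251, limma) and rose from 1184, 921 and 949 to 1473, 1427 and 1446 in HL-60 (0.52, adjusted p = 0.0201, limma). STUB1 (CHIP), a ubiquitin ligase that acts on chaperone clients, had the largest called change of this list in HL-60, from 690, 902 and 680 to 951, 1130 and 1534 (0.65, SE 0.18, adjusted p = 0.0321, limma).

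Among heat shock factors and their regulators, 1 of 7 rose and 1 fell in U937, beside 6.92% and 8.74% of all genes. In HL-60, 1 of 7 rose and 2 fell, beside 13.6% and 12.3%. HSF4, a relative of HSF1, fell in U937 from 319 and 298 to 78 and 136 (log2 fold change -1.57, SE 0.38, adjusted p = 0.0412, limma). EP300, the acetyltransferase that modifies HSF1 among many substrates and the last of the 3 genes called in opposite directions, was named after its values were seen. It was higher in U937 (1.15, adjusted p = 0.0353, limma) and lower in HL-60 (-0.66, adjusted p = 0.0413, limma). HSBP1L1, a relative of the HSF1-binding protein HSBP1, rose in HL-60 (0.76, SE 0.23, adjusted p = 0.0438, limma). Of the list of 9 other small heat shock protein genes, only HSPB11 was tested, and it rose in HL-60 (0.66, adjusted p = 0.0163, limma). HSPB11 was listed by its symbol, and a chaperone role was not examined. CRYAB, HSPB2 and HSPB8 were among the genes at 0 in every library.

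The TRiC/CCT chaperonin, which folds actin and tubulin, had 2 of 9 subunits called higher in U937 and 1 in HL-60, with medians of 0.43 and 0.04. Over all genes, 6.92% were called higher and 8.74% lower in U937, and 13.6% and 12.3% in HL-60. CCT3 rose in U937 from 3669 and 4779 to 8491 and 6614 (log2 fold change 0.84, SE 0.26, adjusted p = 0.0746, limma), and the testis-enriched CCT6B rose in HL-60 from 20, 28 and 30 to 77, 46 and 82 (1.34, SE 0.31, adjusted p = 0.0144, limma). Prefoldin had 0 of 6 called by limma in U937, with 0 at an unadjusted p below 0.05, and 1 higher and 1 lower in HL-60, where PFDN6 fell by 0.46 (adjusted p = 0.0608, limma). Mitochondrial chaperones had 1 of 10 higher in U937, GRPEL1 (0.91, adjusted p = 0.0704, limma), and 3 of 10 lower in HL-60, of which DNAJA3 changed most (-0.68, SE 0.11, adjusted p = 0.00379, limma). The ER chaperones, taken for comparison, had 7 of 12 called higher in HL-60, beside 13.6% of all genes, with a median of 0.59, led by the disulfide isomerase PDIA6 (0.85, SE 0.17, adjusted p = 0.00775, limma). In U937 limma called 0 of 12 of them, with 1 at an unadjusted p below 0.05 and a median of 0.33. Medians over all genes were 0.00 in both lines.

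**Figure D4:**
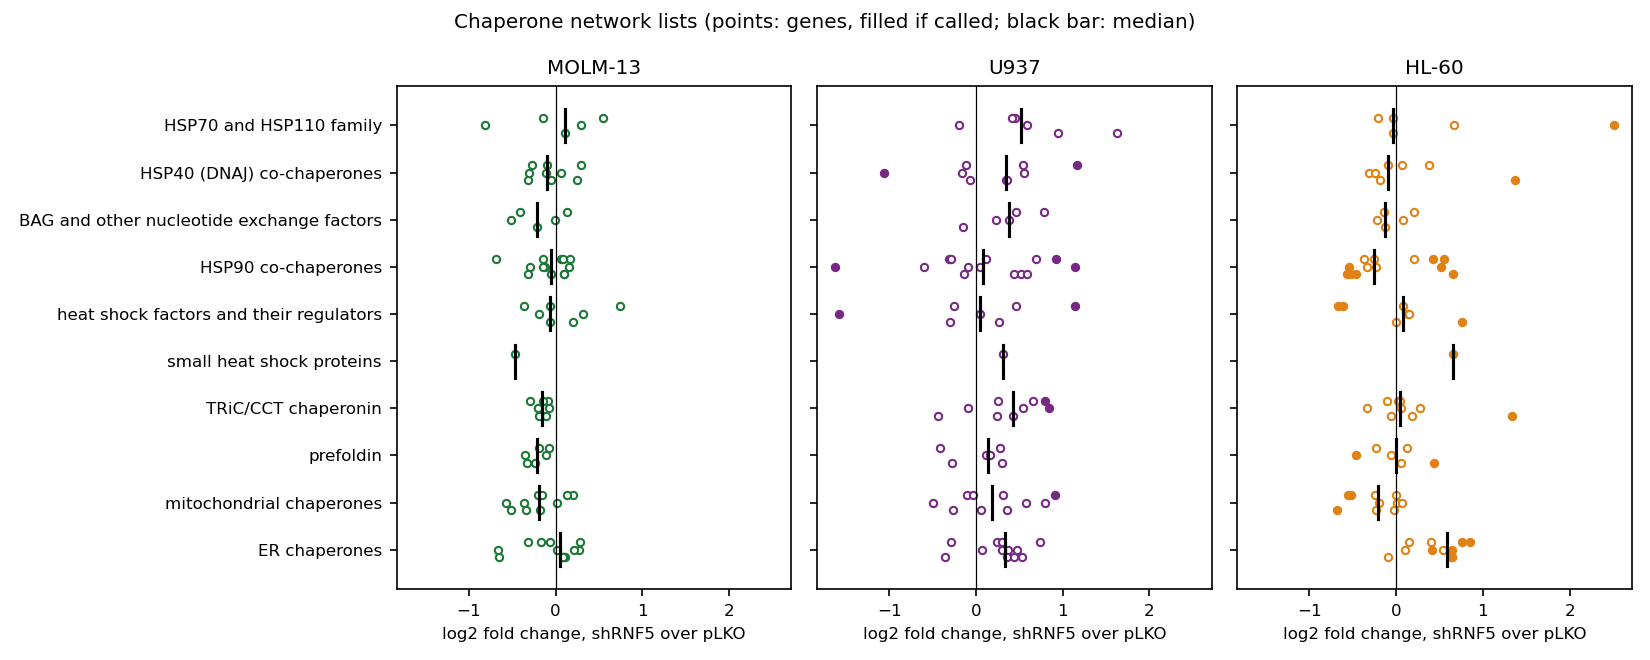
Log2 fold change, shRNF5 over pLKO (horizontal axis), of each tested gene of the 10 chaperone lists (rows) in MOLM-13, U937 and HL-60, with filled points for called genes and a black bar at the list median. In HL-60 the ER chaperones sit mostly to the right of 0, with 7 of 12 called, and HSPA6 is the point at 2.51.

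Genes whose pattern was most like that of the heat shock genes were ranked by Pearson correlation with the mean of 8 members (those with a mean of at least 50 in every line, so without HSPA1A and BAG3). Over 15 line-centred libraries and 9617 genes, the 10 highest were INTS5 (0.948), YWHAH (0.939), CCT2 (0.933), ARHGDIA (0.924), KHDRBS1 (0.923), LCMT2 (0.919), XRCC5 (0.918), TUBB4B (0.917), IWS1 (0.917) and ZC3H4 (0.914). CCT2 is a subunit of the TRiC/CCT chaperonin listed above. The libraries behind these values are shared, and the shift between constructs stays in them. The 4 U937 libraries held 76.9% of the squared deviation of the member mean.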

How the data were processed

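RNA from 15 libraries was sequenced single-end on an Illumina NextSeq instrument. The labels name a 3' tag kit and the study's methods a directional poly(A) kit, and the strand setting of the counting is not given in the sources used here. The authors trimmed reads with Cutadapt, aligned them to hg19 with STAR, counted them with featureCounts (Subread) and normalized the counts with edgeR through SARTools, separately for each line. The deposited values are these normalized counts rounded to whole numbers, treated here as a score and not as raw counts, and genes removed by a filter on low counts stand at 0. Files held 60566 rows for 57820 gene IDs, reduced to 1 row per ID. The members and gene lists were chosen with earlier results of these data known.

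Changes were tested with limma 3.58.1 (R 4.3.3; empirical Bayes with a mean-variance trend) on log2(value + 1) over genes above 0 in a line, and differences between lines in 1 fit over 15 libraries. Fold changes on this scale understate changes of low genes. The method was tested on simulated data. Estimated depth was 9700000 to 63800000 reads per library, so rounding weighs most on genes with low counts. No 2 libraries held the same values. Named were RNF5, all members, list genes called the same way in 2 lines or with the largest called change of a list in a line, and the 10 genes of most similar pattern; other names are marked as chosen later. A marker gene of the lists is not reported here. Alternatives were the pseudocount, filter, scaling, thresholds, trend, a joint fit, a replicate block and leaving out each library. Positions are GRCh37 with GENCODE 44 lifted annotation, and windows are RefSeq.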

Additional observations from a re-analysis of the deposited data

Results flagged for a closer look

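The results below were singled out because the change with shRNF5 differed between 2 lines by the test of the difference itself (limma, 1 fit over 15 libraries, adjusted p below 0.1). Between MOLM-13 and U937, the difference of the log2 fold changes was -1.777 for HSPA8 (0.23 in MOLM-13 and 2.01 in U937), -1.157 for HSPA1B (-0.06 and 1.09), -1.135 for HSP90AA1 (-0.39 and 0.74), -0.951 for HSPH1 (0.20 and 1.15) and -0.688 for DNAJB1 (0.02 and 0.71). HSP90AA1 and DNAJB1 were called in neither line alone. Between U937 and HL-60 the difference was 2.329 for HSPA8 (2.01 and -0.32) and 1.372 for HSPH1 (1.15 and -0.22). Over all genes, 15.4% and 37.2% differed in these contrasts. The U937 controls, shared by all of these differences, had the lowest HSPA8 and HSPH1 counts of the series, and U937 had 2 libraries per construct.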

How the results depend on the processing

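Every call of a single member kept its direction under each alternative, and HSPA8 in U937 and HSPA1A and HSPA1B in HL-60 stayed called under every setting other than leaving out a library. In U937 the number of members called was 5 with a mean value of at least 50, where 2101 of 11224 genes were called. It was 5 in the fit over all 15 libraries and 1 without the mean-variance trend, against 3. In HL-60 it was 2 at an adjusted p below 0.05, against 4. Members whose response differed between MOLM-13 and U937 numbered 1 at an adjusted p below 0.05 and 3 without the trend, against 5, where 808 and 1451 of 11072 genes differed, against 1708. In U937, leaving out 1 library leaves 1 in a group, and HSPA8 had log2 fold changes of 1.66 to 2.35. In MOLM-13, leaving out 1 pLKO library gave 0 called members, where 1 to 872 of 13026 genes were called. Leaving out 1 library gave 1 to 5 called members in HL-60, where 1970 to 3413 of 12570 genes were called. It gave 1 to 5 members whose response in U937 differed from MOLM-13 and 2 to 4 for U937 against HL-60, while the genes that differed ranged from 130 to 3436 and from 2609 to 4798 of 11072. Over all genes tested, the stricter threshold left 39, 824 and 2415 genes called in MOLM-13, U937 and HL-60 against 266, 2062 and 3251, dropping the trend left 55, 475 and 2995, and the joint fit gave 593, 5208 and 2792.

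Same-numbered replicates, by the numbers in the titles, gave mixed correlations of their deviations. The values were -0.173 and -0.53 in MOLM-13, 0.256 in U937 and 0.505, 0.156 and -0.109 in HL-60. So few values do not show whether the libraries were paired, and the main fits held no block. The MOLM-13 shRNF5 libraries titled 1 and 2 carry 2 and 3 in their file names, so that their numbering is in doubt. By those numbers the correlations were 0.53 and 0.281. With 2 shRNF5 libraries, the deviations from their mean are mirror images. The 0.53 is therefore the -0.53 by title with its sign turned, and no separate result. With the replicate block by title, 1 member was called in MOLM-13 (HSP90AA1, -0.58, adjusted p = 0.0984, limma) and 5 in HL-60, and the members that differed were 0 for MOLM-13 against U937, 1 for MOLM-13 against HL-60 and 2 for U937 against HL-60, where 27, 1922 and 1482 of 11072 genes differed. With the block by file number, chosen after seeing the data, 0 members were called in MOLM-13 by limma (HSP90AA1, -0.31, adjusted p = 0.0857, under the fold threshold), and 1, 0 and 2 members differed in these contrasts, where 580, 2215 and 3396 genes did. U937 shares a single number between constructs, so no block could be fitted within it. Over all genes the block gave 738 calls in MOLM-13 by title, 2495 by file number, and 3580 in HL-60.

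Values near 0 changed sign. With median-of-ratios scaling HSPB1 in MOLM-13 was -0.005, and with the block by file number HSPA1B, DNAJB1 and HSPB1 were 0.04, -0.015 and -0.04 there. Leaving out 1 library gave, in MOLM-13, -0.002 to 0.156 for HSF1, -0.367 to 0.241 for HSPA1B, -0.033 to 0.082 for DNAJB1, -0.381 to 0.123 for BAG3 and -0.135 to 0.135 for HSPB1, in U937 -0.195 to 0.340 for HSPB1 and -0.025 to 0.539 for HSP90AB1, and in HL-60 -0.040 to 0.1 for HSF1 and -0.18 to 0.001 for HSP90AB1. The cause of these shifts was not tested. Depth limits mainly HSPA1A, HSPA6 and BAG3, whose HL-60 controls held low counts.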
